A study of Rattus norvegicus with 24 samples.

Results

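Cortical microvessels of rats with ligation of the hepatic artery were compared with those of sham-operated rats. The comparison takes in the 8 arrays labelled HAL and the 8 labelled Sham, 16 of the 24 arrays of the series, chosen by their labels. Both groups held brain cortex microvasculature of rats that had been operated on in 2 steps. In the HAL group surgeons joined the portal vein to the vena cava (portocaval anastomosis), so that gut blood bypassed the liver, and tied off the hepatic artery 24 h after that. This leaves an ischaemic liver in place, and the labels name it as a model of acute liver failure (ALF). Sham rats went through both steps as mock surgery, without the shunt and without the ligation. The remaining 8 arrays were labelled HEP, in which the liver was removed after the same shunt. All rats were killed by decapitation 8 to 12 h after the second step, and the cortical vessels were isolated. No strain, sex or age is given in the labels used here, and whether every array stands for its own rat is not stated either, which means that p-values here measure array-to-array spread only. The shunt and the ligation come together in every HAL array and cannot be told apart here.

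Brain microvessels are tubes of endothelial cells sealed by tight junctions, wrapped by pericytes in a shared basement membrane and covered by the endfeet of astrocytes. This unit is the blood-brain barrier. Its carriers set which nutrients, ions and amino acids enter the brain, and Wnt signals from neural cells keep the endothelium in its barrier state. When the liver fails, ammonia, bile acids, cytokines and prostaglandins rise in the blood that these vessels face, and brain oedema can follow.

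The table used here holds only the decimals of each log2 signal, with the whole-number part lost, and this decides what could be measured. A signal below 10 has 9 decimals and one from 10 on has 8, so a gene whose arrays lie on both sides of 10 can be read. The number of digits was taken to give the whole number: 9 digits were read as a signal from 9 to 10, and 8 digits as one from 10 to 11. Such genes, read from probes with 1 to 14 cells of 9 digits among the 24 arrays, are called near 10 in what follows, and their differences have a direction. Signals under 9 or over 11 would be misread by whole units. A signal from 9 to 10 that lost 1 zero at either end also has 8 digits, and was read as one from 10 to 11. Readings, overlaps and counts at 10 or above in what follows may include such cells. Cells of fewer than 8 digits, 14.1% of those of the probes near 10, were taken as missing, so the number of arrays read is below 8 for many genes. A likelihood model of the digits, which also allows for zeros lost at either end, placed 537 of the 1823 near-10 probes below 10 rather than near it. These were 18 of the 850 probes with 1 to 9 cells of 9 digits and 519 of the 973 probes with 10 to 14. Decoded values below are those of this model. Genes with no cell of 9 digits, at 10 or above on every array, could be compared only by their decimals, and the direction of their differences is not settled. Of their 1542 probes, 537 were more likely near 10 than wholly above it.

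Of 1738 genes read near 10, 66 differed between HAL and Sham at an adjusted p under 0.05 in limma with Benjamini-Hochberg adjustment, which is 3.8% of those tested. They comprised 21 genes higher in HAL (1.21%) and 45 lower (2.59%). When each array was centred on its median, 38 were higher and 44 lower. The median difference over all 1738 genes was -0.04, and 307 genes had an unadjusted p under 0.05. Sizes of the called differences ran from 0.45 to 1.26 on the log2 scale with a median of 0.74, and 5 genes reached 2-fold. Among genes called by decoding the median size was 0.53, and 3 reached 2-fold. With decoded values 112 genes were called (9.16%), 40 of them higher in HAL (3.27%) and 72 lower (5.89%), and 55 of the 66 were among them. The likelihood model placed 63 of the 66 near 10. The other 3, Rgs17 (-0.97), Tpd52l1 (-0.70) and Tsen15 (0.71), were more likely below 10, and no direction can be relied on for them. The groups did not overlap in 30 of the 66 genes. These genes were picked for their difference and the share over all 1738 was not counted, so this number does not bear on the calls. Leaving out 1 array at a time gave 49 to 88 genes, and 38 of the 66 were called whichever array was left out. All 3 groups shared the estimate of spread, and without HEP array 8, which stood apart from the other HEP arrays, 96 genes were called, all 66 among them. HAL array 2 had the lowest median reading, 9.96 against 10.10 to 10.21 on the other HAL and Sham arrays. Without it and the next 2 lowest, HAL array 5 and Sham array 3, 37 genes were called, of which 30 were among the 66.

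**Figure D1:**
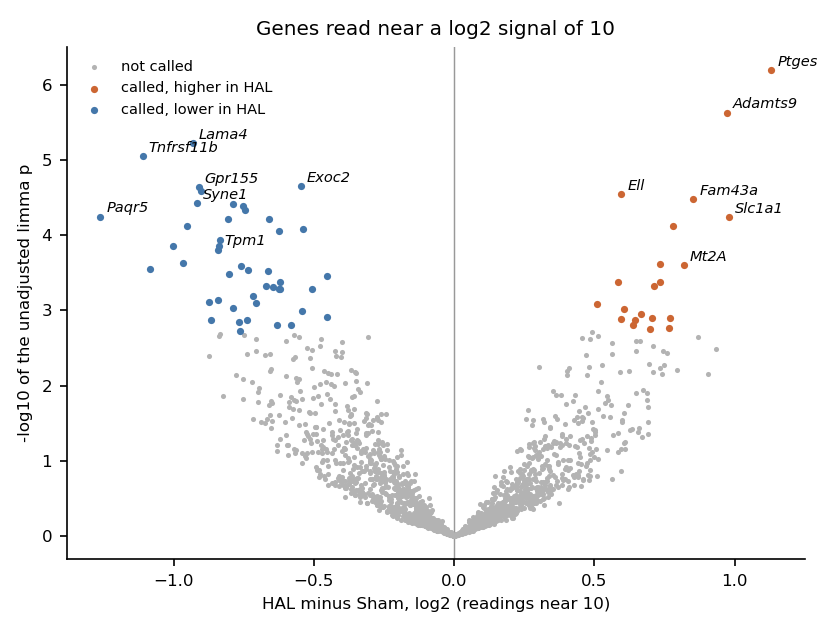
Difference between HAL and Sham (log2, horizontal axis) against -log10 of the unadjusted limma p for each of the 1738 genes read near 10. Orange points are the 21 genes called higher in HAL and blue points the 45 called lower. Ptges stands at the upper right with a difference of 1.13, and Paqr5 lies farthest to the left at -1.26.

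The largest rise was that of Ptges, the inducible microsomal prostaglandin E synthase, which turns the cyclooxygenase product PGH2 into PGE2 and in brain endothelium is known as a link between inflammation in the body and fever. The lowest, median and highest readings were 9.25, 9.62 and 10.34 on the 7 Sham arrays read, and 10.48, 10.84 and 10.97 on the 7 HAL arrays read. Every HAL array lay above every Sham array. Ptges rose by 1.13 (limma adjusted p = 0.0011, SE 0.16), and the decoded difference was 0.99. Its promoter, the 250 bases before the annotated start in RefSeq (GRCr8, chr3:34586988-34587237, minus strand), is shown because Ptges led the comparison. The capitals mark the match to the EGR site GCGGGGGCG, searched on both strands, which 2.45% of 33469 RefSeq promoters of this length hold. A match of letters does not show binding.
Ptges promoter: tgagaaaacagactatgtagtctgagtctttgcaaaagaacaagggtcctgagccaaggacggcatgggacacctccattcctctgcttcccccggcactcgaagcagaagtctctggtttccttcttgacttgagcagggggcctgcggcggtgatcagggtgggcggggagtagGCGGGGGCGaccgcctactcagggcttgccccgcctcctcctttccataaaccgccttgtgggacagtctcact

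Slc1a1, the neuronal-type glutamate and cysteine carrier EAAT3, also moved from below to above 10. Its readings were 9.12, 9.30 and 10.42 (lowest, median and highest) on 8 Sham arrays and 10.11, 10.53 and 10.98 on 7 HAL arrays. The ranges overlapped through 2 Sham arrays read at 10 or above. Slc1a1 rose by 0.98 (limma adjusted p = 0.00626, SE 0.20). Adamts9, a secreted metalloprotease of the extracellular matrix, had Sham readings of 9.21, 9.47 and 10.46 on 8 arrays and HAL readings of 10.17, 10.54 and 10.84 on 7. A single Sham array was read at 10 or above, and all HAL arrays were. The rise was 0.97 (limma adjusted p = 0.00202, SE 0.16). A second Adamts9 probe read at -0.44, but its digits were more likely those of a signal below 10, where this reading gives no direction. The mean of both probes rose by 0.27 and was not called. The second Slc1a1 probe, read at 0.55, was likewise more likely below 10 and gives no direction either.

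Mt2A, a metallothionein that binds zinc and copper and is known to be induced by metals and by glucocorticoids, read 9.33, 9.92 and 10.54 on 7 Sham arrays and 10.35, 10.65 and 10.99 on 7 HAL arrays. All HAL arrays lay above 10, as did 2 Sham arrays, so the ranges overlapped slightly. The rise was 0.82 (limma adjusted p = 0.0153, SE 0.19). The 250 bases before its start (GRCr8, chr19:10838709-10838958, minus strand, RefSeq) are shown because metal response elements are the known control sites of this family. The pattern TGCNCNC, a loose form of their core, was searched on both strands and marked in capitals. A match to it need not be such an element. It occurred 5 times without overlap, while 43.4% of all 33469 promoters of this length hold at least 1 and 0.37% hold at least 5. Whether any of these 5 matches is used was not measured.
Mt2A promoter: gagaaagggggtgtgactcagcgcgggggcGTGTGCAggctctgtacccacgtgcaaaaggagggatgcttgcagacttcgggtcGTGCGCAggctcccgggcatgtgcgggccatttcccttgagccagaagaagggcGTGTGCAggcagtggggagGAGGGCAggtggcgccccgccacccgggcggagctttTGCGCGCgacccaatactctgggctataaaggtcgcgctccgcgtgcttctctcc

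The other large rises concerned a mixed set of genes. Fam43a read 9.14, 9.56 and 9.91 on 8 Sham arrays and 9.98, 10.48 and 10.65 on 7 HAL arrays, which did not overlap, and rose by 0.85 (limma adjusted p = 0.00585, SE 0.16). B4galt5, a galactosyltransferase that makes lactosylceramide, read 9.41, 9.80 and 10.17 on 7 Sham arrays and 10.12, 10.54 and 10.79 on 7 HAL arrays, and rose by 0.78 (limma adjusted p = 0.00689, SE 0.16). Its second near-10 probe read at 0.02, and the mean of both, 0.37, was not called. Ampd3, which deaminates AMP, read 9.49, 9.67 and 9.84 on 8 Sham arrays and 9.97, 10.39 and 10.81 on 7 HAL arrays. These groups did not overlap, and Ampd3 rose by 0.73 (limma adjusted p = 0.0198, SE 0.18). Scn4b, an auxiliary subunit of sodium channels, Prxl2a, a peroxiredoxin-like protein, and Mapt, the microtubule protein tau, rose by 0.77, 0.77 and 0.73. The HAL and Sham readings of these last genes overlapped, and the calls of Scn4b and Prxl2a ended when single arrays were left out, 8 and 11 of the 16 respectively.

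Smaller rises included Adam15, a membrane-bound disintegrin and protease (0.70), Hyal2, a hyaluronidase (0.65), Wfdc1 (0.67), Hacd3, an enzyme of fatty acid elongation (0.64), Tmem88, an inhibitor of Wnt signalling (0.60), Ell, a transcription elongation factor (0.60), Msl3l2 (0.59) and Usp11, a deubiquitinase (0.58). Ell was among the clearest, with HAL readings of 10.52, 10.66 and 10.88 on 8 arrays against 9.85, 10.14 and 10.36 on 6 Sham arrays. The calls of Adam15, Hacd3 and Msl3l2 ended when any of 12, 11 and 10 arrays was left out. Those of Wfdc1, Hyal2, Tmem88 and Usp11 ended with 8, 7, 6 and 1. Usp11, Hyal2, Hacd3 and Wfdc1 were not called with decoded values, and the decoded difference of Usp11 was 0.003.

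**Figure D2:**
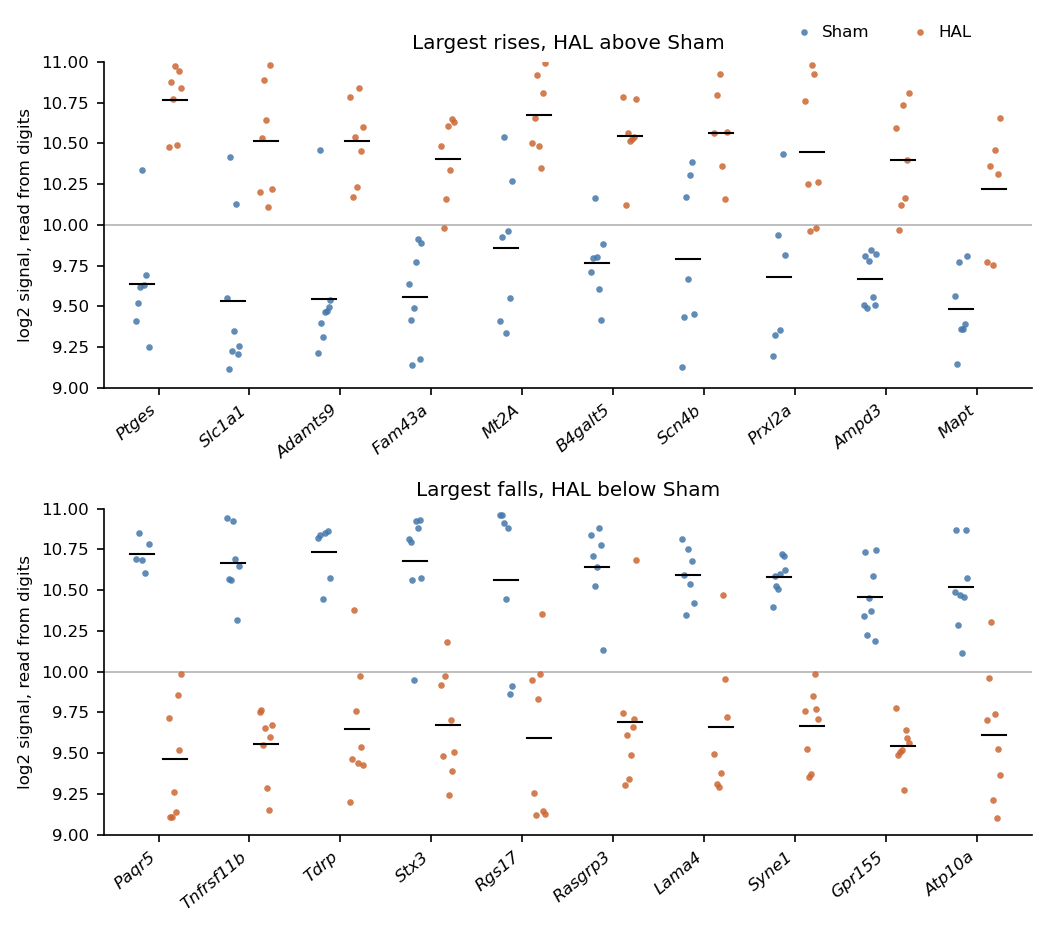
Readings of the log2 signal (vertical axis, 9 to 11) on every array that could be read, for the 10 largest rises (upper panel) and the 10 largest falls (lower panel) between Sham (blue) and HAL (orange). Points are arrays, black bars are group means and the grey line marks 10. The 7 HAL arrays of Ptges lie between 10.48 and 10.97, above all Sham arrays, and the 8 HAL arrays of Gpr155 lie between 9.27 and 9.78, below all Sham arrays.

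Among the falls, Paqr5, a membrane progestin receptor, read 10.61, 10.69 and 10.85 (lowest, median and highest) on the 5 Sham arrays that could be read and 9.11, 9.39 and 9.98 on 8 HAL arrays. No HAL array reached the Sham range. The difference was -1.26 (limma adjusted p = 0.00626, SE 0.25), the largest of all genes called in the readings. The decoded difference of Paqr5 was -1.01, smaller than the -1.04 of Tnfrsf11b. Tnfrsf11b, the secreted decoy receptor osteoprotegerin that binds RANKL, read 10.32, 10.65 and 10.94 on 7 Sham arrays and 9.15, 9.63 and 9.76 on 8 HAL arrays. These groups also lay apart, with a difference of -1.11 (limma adjusted p = 0.00385, SE 0.20). Stx3, a syntaxin of the apical membrane, read 9.95, 10.80 and 10.93 on 8 Sham arrays and 9.24, 9.60 and 10.18 on 8 HAL arrays, and fell with a difference of -1.003 (limma adjusted p = 0.0101, SE 0.22). Here 1 Sham array lay within the HAL range. Tdrp fell with a difference of -1.08 (limma adjusted p = 0.0159, SE 0.25).

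Gpr155 and Syne1 were read on all 16 arrays and lay on opposite sides of 10 in the 2 groups. For Gpr155, an integral membrane protein, the 8 Sham readings were 10.19, 10.41 and 10.75 and the 8 HAL readings 9.27, 9.54 and 9.78. All Sham arrays thus lay above 10 and all HAL arrays below it, with a difference of -0.91 (limma adjusted p = 0.00585, SE 0.18). Syne1, the nesprin that ties the nucleus to the cytoskeleton, read 10.40, 10.59 and 10.72 in Sham and 9.35, 9.74 and 9.98 in HAL, and its difference was -0.92 (limma adjusted p = 0.00585, SE 0.18). The direction rests on the whole numbers: with the decimals alone, as angles, Gpr155 was 0.089 and Syne1 0.083, and Gpr155 was also 0.089 when the decoding allowed an SD of up to 0.35. Atp10a, a phospholipid flippase, was also read on all 16 arrays, and 8 of 8 Sham against 1 of 8 HAL arrays lay at 10 or above (difference -0.90, SE 0.18, adjusted p = 0.00585 in limma). In 27 of the 66 genes every Sham array read lay at 10 or above and at most 1 HAL array did. The reverse, with every HAL array and at most 1 Sham array at 10 or above, held for 4. Both counts are of genes picked for a difference between the groups, and no share over all genes near 10 was counted. Cells of 8 digits that lost a zero may be among them. Rasgrp3, an exchange factor of Ras proteins, read 10.13, 10.71 and 10.88 on 7 Sham arrays and 9.30, 9.64 and 10.68 on 8 HAL arrays, a difference of -0.95 (limma adjusted p = 0.00689), but its decoded difference of -0.25 was not called.

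Carriers of the barrier moved in both directions. Of 12 transporters of the blood-brain barrier read near 10, 1 rose and 2 fell, and the median difference of the list was -0.24 against -0.04 over all genes tested. The rise was that of Slc1a1. Gene lists were chosen with earlier results of these data known, so here and below their comparison with all genes is a description and not a test. Slc38a5, an exchanger of glutamine and other neutral amino acids on brain endothelium, read 10.18, 10.48 and 10.78 on 7 Sham arrays and 9.17, 9.73 and 10.19 on 8 HAL arrays. Sham lay wholly above 10 and all HAL arrays but 1 below it, and Slc38a5 fell with a difference of -0.79 (limma adjusted p = 0.00585, SE 0.15). Slc39a8, a carrier of zinc and manganese, had a difference of -0.84 (limma adjusted p = 0.028, SE 0.22), but the decoded difference of -0.31 was not called. Leaving out any of 5 arrays also ended the call of Slc39a8. Slc7a5, the large neutral amino acid carrier, Tfrc, the transferrin receptor, and Slc22a8, an organic anion carrier, had differences of -0.02, 0.02 and -0.04, the first of which turned to 0.026 with centred arrays. Mfsd2a, the lipid carrier of the barrier, read at -0.54 (limma adjusted p = 0.15, SE 0.21), but its digits were more likely those of a signal below 10. The list of ammonia and glutamine metabolism repeats Slc1a1 and Slc38a5 as its called genes among 6 read, with a median difference of -0.08, and Glud1, glutamate dehydrogenase, at -0.27 was not called. Neither of the 2 ABC transporters read near 10, Abcb4 and Abcg1, was called, with differences of -0.11 and 0.01.

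Among genes of Wnt and Norrin signalling in the endothelium, both co-receptors read near 10 fell. Near 10 this list of Wnt targets and barrier regulators had 9 genes, of which 2 fell, 0 rose and 1 had a positive difference, with a median of -0.24. Over all genes near 10, 2.59% fell and 43.3% had a positive difference. Tspan12, the Norrin co-receptor, read 10.23, 10.51 and 10.73 on 7 Sham arrays and 9.17, 9.78 and 9.99 on 6 HAL arrays. The groups did not overlap, and the difference was -0.80 (limma adjusted p = 0.0174, SE 0.19). Adgra2, the Wnt7 co-receptor also called Gpr124, read 10.25, 10.48 and 10.58 on 5 Sham arrays and 9.15, 9.60 and 10.35 on 6 HAL arrays, a difference of -0.77 (limma adjusted p = 0.0414, SE 0.21). Its call ended when any of 10 of the 16 arrays was left out. Sox18, an endothelial transcription factor, had a difference of -0.71 (limma adjusted p = 0.0651). Lef1 and Tcf7l2, the factors that carry the Wnt signal to DNA, had differences of -0.19 and -0.09.

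Growth factor pathways of the vessel wall each held a fall. Of 9 genes of the VEGF and angiopoietin list 1 fell, Nrp1, a co-receptor of VEGF, from 10.29, 10.45 and 10.98 on 5 Sham arrays to 9.20, 9.64 and 10.14 on 7 HAL arrays. Its difference was -0.87 (limma adjusted p = 0.0395, SE 0.23), its second near-10 probe read at -0.80, and the groups of the first did not overlap. The call ended when any of 8 arrays was left out. The ligand Angpt2 had a difference of -0.16 and the endothelial receptor Tie1 one of -0.02, which turned to 0.015 with centred arrays. Of 6 TGF-beta and BMP genes 1 fell, Ltbp4, which holds latent TGF-beta in the matrix, with a difference of -0.84 (limma adjusted p = 0.00922, SE 0.18). Its Sham readings of 10.53, 10.73 and 10.91 on 6 arrays lay above all HAL readings of 9.59, 9.67 and 10.45 on 6.

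The basement membrane and matrix list had 8 members near 10, all with a negative difference, a median of -0.32 and 2 falls, where 2.59% of all genes near 10 fell and 43.3% had a positive difference. The likelihood model placed 7 of the 8 near 10, with a decoded median of -0.39, and the sign of the remaining member cannot be relied on. With centred arrays Lama5, at -0.03, turned to 0.017. Lama4, a laminin chain that endothelium secretes, read 10.35, 10.60 and 10.81 on 7 Sham arrays and 9.30, 9.49 and 10.47 on 7 HAL arrays. A single HAL array reached the Sham range, and the difference was -0.93 (limma adjusted p = 0.00345, SE 0.16). Col3a1, a fibrillar collagen, read 10.12, 10.44 and 10.86 on 7 Sham arrays and 9.20, 9.57 and 9.98 on 7 HAL arrays, without overlap. Its difference was -0.87 (limma adjusted p = 0.0295, SE 0.23), and the call ended when any of 5 arrays was left out. Col1a2, the partner chain of type I collagen, had a difference of -0.83 (limma adjusted p = 0.0522, SE 0.24). Col4a2, a chain of type IV collagen, and Itga1, an integrin that binds collagen, had differences of -0.25 and -0.40. Of the matrix proteases only Adamts9 was read near 10.

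Junction and cytoskeleton genes split. Of 7 tight and adherens junction genes near 10, 1 rose and 1 fell, with a median of 0.11. Jam2, an adhesion molecule of endothelial junctions, read 9.66, 9.94 and 10.21 on 8 Sham arrays and 10.25, 10.38 and 10.74 on 7 HAL arrays, which did not overlap, and rose by 0.51 (limma adjusted p = 0.0295, SE 0.13). Its second near-10 probe read at 0.17, and the mean of both, 0.36, was not called. The call of Jam2 ended when any of 6 arrays was left out. Mpdz, a scaffold protein of tight junctions, read 10.26, 10.42 and 10.79 on 8 Sham arrays and 9.40, 9.82 and 10.12 on 6 HAL arrays. No HAL array reached the Sham range, and the difference was -0.74 (limma adjusted p = 0.00609, SE 0.15). Cldn12 and Jam3 had differences of 0.15 and 0.20. Among 9 actin and contractile genes 1 fell, Tpm1, a tropomyosin, whose Sham readings of 10.36, 10.57 and 10.76 on 7 arrays lay above the HAL readings of 9.58, 9.70 and 9.96 on 7. The difference was -0.84 (limma adjusted p = 0.0108, SE 0.19). Of 9 caveolar, clathrin and vesicle genes 1 fell, Stx3.

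Ptges was the only gene called near 10 in the lists of inflammation, interferon response, prostaglandins and acute phase. It was the 1 gene called of 8 NF-kB and inflammatory genes, of which 6 had positive differences, and of 2 prostaglandin genes. The likelihood model placed 6 of the 8 NF-kB and inflammatory genes near 10, and the signs of the others cannot be relied on. Tnfrsf1a, a TNF receptor, and Nfkbia, the inhibitor of NF-kB that NF-kB itself induces, had differences of 0.40 and 0.38 and were not called. All 4 acute phase and complement genes near 10 had positive differences, with a median of 0.53, and none was called. C1s, a complement protease, had a difference of 0.75 (limma adjusted p = 0.0847, SE 0.24), and its HAL readings of 10.13, 10.77 and 10.93 on 5 arrays overlapped with Sham readings of 9.32, 9.79 and 10.50 on 5. Lcn2, the iron-carrier binding lipocalin, had a difference of 0.80 (limma adjusted p = 0.0919, SE 0.26). The 3 interferon response genes Bst2, Irf9 and Rsad2 had differences of -0.52, -0.34 and -0.20, none called. Ackr1, a chemokine decoy receptor of venules, had a difference of 0.44 (limma adjusted p = 0.207) and was the only adhesion or chemokine gene read near 10.

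Genes of the glucocorticoid, hypoxia, amino acid stress and immediate early lists had mostly positive differences, against 43.3% of all genes near 10. The lists were chosen with earlier results of these data known, so this is a description and not a test. The 43.3% includes genes more likely below 10, and with decoded values 44.5% of 1223 genes had a positive difference. Of 5 glucocorticoid response genes all had positive differences, with a median of 0.38, and 1 was called, Mt2A. The likelihood model placed 4 of the 5 near 10, with a decoded median of 0.32. Of 6 hypoxia and glycolysis genes all had positive differences, with a median of 0.40. The model placed 5 of the 6 near 10, with a decoded median of 0.29. In both lists the sign of the gene placed below 10 cannot be relied on. No hypoxia gene was called in the readings, while Hk1 and Higd1a were called with decoded values. Hk1, the first enzyme of glycolysis, had a difference of 0.49 (limma adjusted p = 0.0505, SE 0.14) and Higd1a, a mitochondrial protein induced by low oxygen, 0.30 (limma adjusted p = 0.0884, SE 0.10). Of 6 genes of amino acid stress, sestrins and FOXO targets 1 rose, Depp1, which FOXO factors induce. Depp1 read 9.30, 9.81 and 10.88 on 8 Sham arrays and 10.13, 10.71 and 10.86 on 6 HAL arrays and rose by 0.71 (limma adjusted p = 0.0395, SE 0.19). The ranges overlapped, and the call ended when any of 10 arrays was left out. Gadd45g, a growth arrest gene, had a difference of 0.87 (limma adjusted p = 0.0524, SE 0.25), but its digits were more likely below 10. So were those of Egr3, the immediate early gene of smallest p, which read at 0.90 (limma adjusted p = 0.0942, SE 0.31). None of 8 immediate early genes was called, with Jun at 0.29. Of Fos, read at -0.52, the digits were also more likely below 10.

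Other metabolic and homeostatic lists held 1 or 2 calls at most. Of 6 metallothionein and metal handling genes Mt2A rose and Slc39a8 fell. Of 3 oxidative stress genes Gsta4, a glutathione transferase that detoxifies lipid aldehydes, fell from 10.16, 10.57 and 10.95 on 7 Sham arrays to 9.67, 9.75 and 10.39 on 7 HAL arrays. The difference was -0.75 (limma adjusted p = 0.00585, SE 0.15), 1 HAL array lay within the Sham range, and the decoded difference was smaller, at -0.40. Of 8 clock genes 1 fell, Nr1d2, the repressor REV-ERB beta, with Sham readings of 10.73, 10.79 and 10.95 on 7 arrays above all HAL readings of 9.51, 10.18 and 10.48 on 8. Its difference was -0.66 (limma adjusted p = 0.00626, SE 0.13), while Per1 had one of 0.33 and Cry2 of 0.16, neither called. Time of day was not given in the labels used here.

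Lists of general cell functions showed no call near 10. These were 14 respiratory chain and ATP synthase genes (median difference 0.03), 10 translation factors (-0.08), 7 proteasome and ubiquitin genes (0.04), 7 genes of the endoplasmic reticulum (-0.03), 4 heat shock and chaperone genes (-0.19) and 2 ribosomal proteins (-0.06). The 6 sterol and fatty acid synthesis genes had a median of 0.04, with Acly, which makes cytosolic acetyl-CoA, at 0.71 (limma adjusted p = 0.093, SE 0.23) from 4 arrays read in each group. The 5 water and ion transport genes had a median of -0.03, Aqp4, the water channel of astrocyte endfeet, among them at -0.14. The 4 vascular tone genes had a median of 0.22, with Gucy1b1, a subunit of the nitric oxide receptor, at -0.34 (limma adjusted p = 0.137). Without a call, these values do not show that the genes were alike in both groups.

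**Figure D3:**
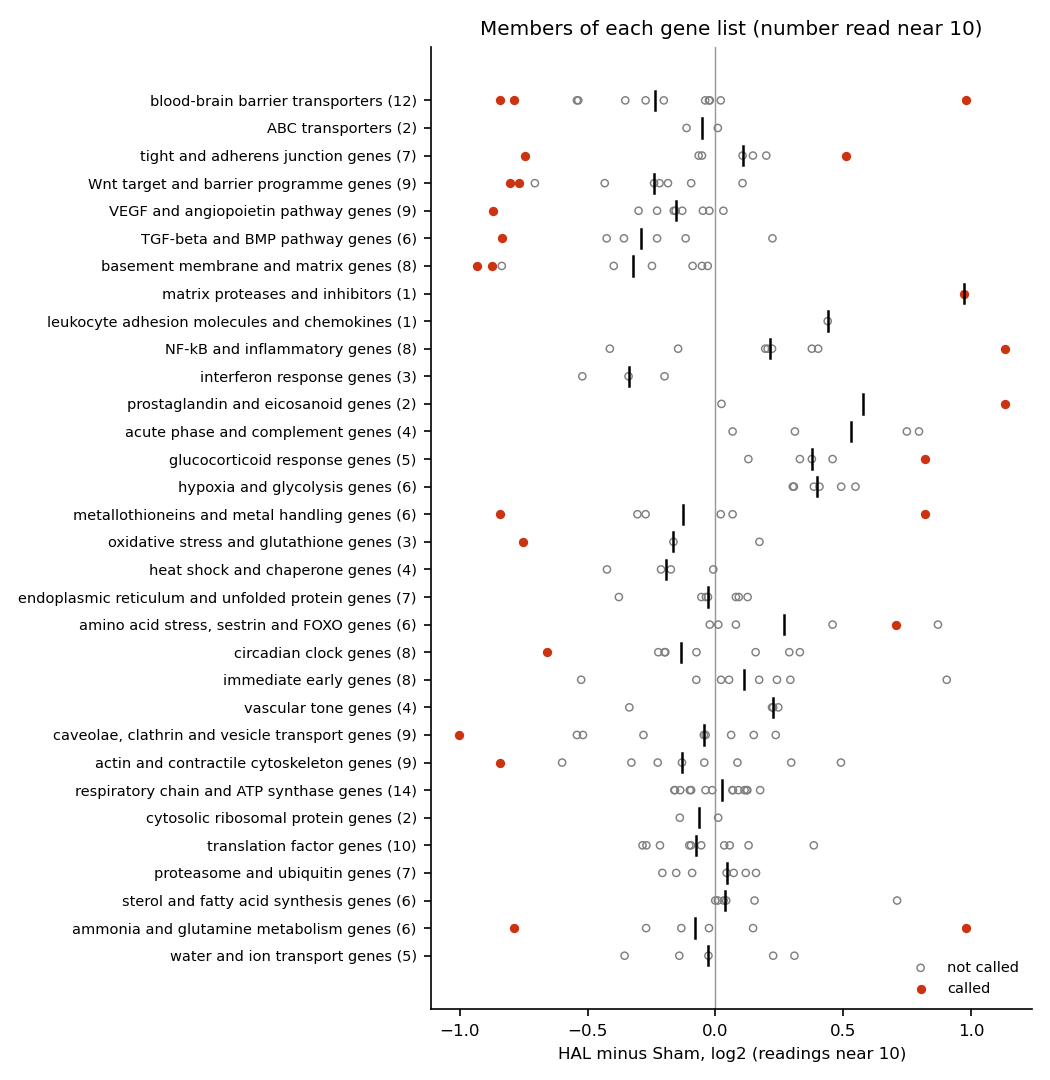
Difference between HAL and Sham (log2, horizontal axis) of each gene read near 10, by gene list, with the number of genes read in parentheses. Red points are called genes, open circles genes not called and black bars the list medians. The basement membrane and matrix list lies wholly below 0 with a median of -0.32, and the hypoxia and glycolysis list wholly above 0 with a median of 0.40 and no call. Both lists include a gene whose digits were more likely below 10, where no direction can be relied on.

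Further falls outside these lists involved signalling and regulatory proteins. Csk, the kinase that holds Src kinases inactive (-0.58), Sh2b3, an adaptor that dampens cytokine signals (-0.54), Tab2, an adaptor of the TAK1 kinase (-0.45), Pkd2, a calcium-permeable channel (-0.62), and Exoc2, a subunit of the exocyst (-0.55), all fell in the readings. Exoc2 read 10.11, 10.27 and 10.36 on 7 Sham arrays and 9.37, 9.76 and 9.89 on 8 HAL arrays, with Sham wholly above 10 and HAL wholly below it. Regulators of transcription and chromatin were Kat2b, an acetyltransferase (-0.67), Tbl1xr1, a part of corepressor complexes (-0.66), and Mllt3 (-0.63). Enzymes were Eogt, which adds sugar to EGF repeats (-0.84), Aldh1a2, which makes retinoic acid (-0.62), Rnpep, an aminopeptidase (-0.63), and Enpp1, which makes pyrophosphate (-0.76). Eogt had narrow groups, with Sham readings of 10.40, 10.43 and 10.53 on 6 arrays and HAL readings of 9.37, 9.64 and 9.80 on 7. Leaving out single arrays ended the calls of Enpp1 with 13 arrays, of Csk with 12, of Rassf8 with 11 and of Mllt3 with 10. It also ended those of Sh2b3 with 9, Cpsf2 with 7, Afap1l2 with 4, Slain2 with 3, Rnpep with 2 and Cachd1 with 1. Csk and Serpinb9, an inhibitor of granzyme B that read at -0.74, were not called with decoded values. The remaining falls were Fam13c (-0.81), Rexo2 (-0.76), Rassf8 (-0.74), Afap1l2 (-0.72), Cachd1 (-0.65), Slain2 (-0.62), Caprin1 (-0.54), Cggbp1 (-0.51) and Cpsf2 (-0.45).

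Levels of cell type markers were checked by the same digits. Endothelial genes were high: 18 of the 20 markers that the arrays probe, Cldn5, Pecam1 and Flt1 among them, were at 10 or above on all 24 arrays. The counts were 4 of 15 for pericytes, 4 of 12 for smooth muscle, 5 of 11 for perivascular fibroblasts, 7 of 14 for astrocytes, 3 of 14 for oligodendrocytes and 2 of 5 for red cells. No marker lay there throughout among 19 for neurons, 12 for lymphocytes, 10 for neutrophils and monocytes, 16 for microglia and macrophages, 16 for hepatocytes and 9 for choroid plexus. The labelled tissue thus showed its endothelial markers, with astrocyte and mural genes beside them. In RNA of whole vessels, fewer cells of a type and less RNA per cell cannot be told apart.

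Near 10, called markers were 1 of 3 endothelial (Slc38a5), 1 of 4 pericyte and 1 of 2 perivascular fibroblast genes (Col3a1), all lower in HAL. Atp13a5, a pericyte gene, read 10.20, 10.41 and 10.98 on 8 Sham arrays and 9.12, 9.73 and 10.59 on 7 HAL arrays, a difference of -0.79 (limma adjusted p = 0.0331, SE 0.21). Its call ended when any of 6 arrays was left out. The other pericyte genes Abcc9, Cspg4 and Kcnj8 had differences of -0.03, -0.02 and 0.23, the first and second turning to 0.013 and 0.023 with centred arrays. Both fibroblast genes, Col3a1 and Col1a2, are also among the matrix genes above, and the part of these cells in the matrix differences was not tested. In the readings no marker was called among 3 astrocyte (median 0.18), 6 neuron (0.23), 4 oligodendrocyte (-0.15), 2 microglia and macrophage (0.02) and 3 hepatocyte genes (0.03), while Rbp4 of the last list was called with decoded values. Rbp4, a plasma retinol carrier made mainly by the liver, had a difference of 0.59 (limma adjusted p = 0.093, SE 0.20), Eno2 of neurons 0.41, Lyz2 of macrophages 0.17 and Tpm2 of smooth muscle -0.13. Ugt8 of oligodendrocytes, Ncf1 of neutrophils, Gzmb of lymphocytes and Ttr of the choroid plexus read at -0.41, -0.13, -0.09 and 0.03, and of these only Ttr was more likely near 10 than below it.

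Genes at 10 or above on all arrays were compared as deviations of their decimals from the circular mean of the 16 arrays. A difference is then known only up to whole units, so one of -0.45 could equally be 0.55, and genes are said to differ, without a direction. Of 1410 such genes 7 were called in limma with Benjamini-Hochberg adjustment, 0.496% of those tested, and 220 had an unadjusted p under 0.05. Without HEP array 8 there were 11. Leaving out single HAL or Sham arrays gave 2 to 10 calls, and 2 of the 7 genes, Esyt2 and Sos1, were called whichever array was left out. With decoded values 32 genes were called (2.27%), 6 of the 7 among them. Members called by decoding only included Nr3c1, the glucocorticoid receptor, Hspa5, a chaperone of the endoplasmic reticulum, Afdn, a junction scaffold, and Itga6, a laminin receptor.

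Sos1, an exchange factor that activates Ras, had the smallest p in limma. Its deviations were 0.082, 0.24 and 0.41 (lowest, median and highest) on 8 Sham arrays and -0.31, -0.18 and -0.099 on 8 HAL arrays. The groups did not overlap, and the difference was -0.43 or 0.57 (limma adjusted p = 0.0015, SE 0.07). Esyt2, a tether between the endoplasmic reticulum and the plasma membrane, differed by -0.45 or 0.55 (limma adjusted p = 0.0118, SE 0.09), with 0.018, 0.30 and 0.44 on 7 Sham arrays against -0.44, -0.12 and -0.053 on 8 HAL arrays. Ilk, the integrin-linked kinase, differed by -0.40 or 0.60 (limma adjusted p = 0.0264, SE 0.08), without overlap between 8 Sham and 5 HAL arrays. Hexim1, an inhibitor of the elongation factor P-TEFb, and Mbd2, a reader of methylated DNA, differed by -0.36 or 0.64 and by -0.34 or 0.66 (adjusted p = 0.0324 for each in limma).

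Slco1a4, the organic anion carrier OATP1A4 of brain endothelium, was the only called gene of 14 barrier transporters and of 16 endothelial markers compared in this way. Its deviations were 0.034, 0.16 and 0.21 on 7 Sham arrays and -0.32, -0.19 and -0.026 on 7 HAL arrays. The groups lay apart, by -0.35 or 0.65 (limma adjusted p = 0.0324, SE 0.08), but leaving out any of 11 of the 16 arrays ended the call. Itprid2 differed by 0.46 or -0.54 (limma adjusted p = 0.0264, SE 0.09) from 4 Sham and 7 HAL arrays, and its decoded difference of -0.20 was not called. In an exact 2-sided permutation test of the circular group means, run on 21 genes with no adjustment, Esyt2 and Itprid2 gave p = 0.111 and p = 0.142 and Sos1 p = 0.0295, while Slco1a4, Ilk, Hexim1 and Mbd2 gave p of 0.000583 to 0.00637.

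**Figure D4:**
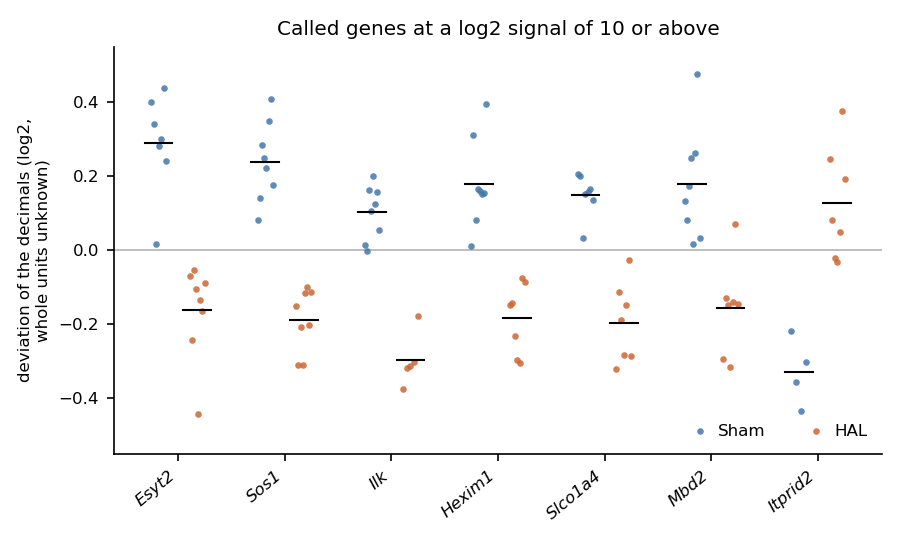
Deviation of the decimals of the log2 signal from the circular mean of HAL and Sham arrays (vertical axis, whole units unknown) for the 7 called genes at 10 or above. Points are arrays, blue for Sham and orange for HAL, and black bars are means. The 8 Sham arrays of Sos1 lie between 0.082 and 0.41 and the 8 HAL arrays between -0.31 and -0.099, but which group is higher is not settled.

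In limma on the angles, no list other than the transporters and the endothelial markers had a called gene at 10 or above, while decoding called 1 gene each among the junction, matrix and endoplasmic reticulum genes. Of 11 junction genes, Cldn5, the main claudin of the barrier, had a difference of -0.01 (0.030 with centred arrays), Ocln of -0.08, Tjp1 of -0.30 (limma adjusted p = 0.109) and Pecam1 of 0.16. Slc2a1, the glucose carrier GLUT1, had one of 0.16, Abcb1a, the efflux pump P-glycoprotein, of -0.30 and Slc6a6, the taurine carrier, of 0.35, none called. All 31 ribosomal proteins compared lay between -0.20 and 0.19, with Rpl21 at -0.20, and the 24 respiratory chain genes between -0.20 and 0.28, with Uqcrc1 at 0.28. The member of smallest p was not called for ABC transporters (Abcf1, -0.26), translation factors (Eif4g2, -0.24), chaperones (St13, -0.17), endoplasmic reticulum genes (Edem1, 0.36), hypoxia genes (Bnip3l, 0.36), proteasome genes (Psma7, 0.27), ion transport genes (Slc12a2, 0.22) and adhesion molecules (Icam2, 0.29). The same held for astrocyte (Gja1, 0.16), smooth muscle (Tagln, 0.18) and red cell markers (Bpgm, -0.11). At 10 or above Gucy1b1 also had a probe, which read at -0.23. Each of these values could be a whole unit off. Of the 66 genes called near 10, 6 also had a probe at 10 or above, which had differences of 0.33 (Jam2), 0.28 (Stx3), -0.21 (Nr1d2), -0.09 (Tdrp), -0.02 (Serpinb9) and -0.02 (Tpm1, 0.016 with centred arrays), none called.

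The 8 HEP arrays, in which the liver was absent, could be set against the ischaemic livers of HAL for the same genes. HEP array 8 stood apart from its group: in 45 of the 57 called near-10 genes read on it, it lay nearer the Sham mean than the HAL mean, against 7 to 15 genes on each of the other HEP arrays. In all 6 genes called by angle and read on it, it was also nearer Sham. Tested directly, HAL minus HEP gave 0 calls of 1738 genes near 10 in limma (161 at an unadjusted p under 0.05, 1 call with decoded values) and 0 of 1410 by angle (132 at an unadjusted p under 0.05). Without HEP array 8 the calls were again 0 near 10 (148 at an unadjusted p under 0.05, 0 calls with decoded values) and 0 by angle (141). These counts do not show that HAL and HEP were alike. Among the 66 genes the difference between HAL and HEP was at most 0.65, for Hacd3, which had a mean of 9.87 ± 0.26 in HEP (SD, n = 8). Ptges had a HEP mean of 10.65 ± 0.32 (SD, n = 6), 0.12 below HAL and 0.18 below it without HEP array 8, and Lama4 one of 9.58 ± 0.17 (SD, n = 7), 0.08 below HAL. Paqr5 was spread widely in HEP, with arrays 1 and 8 at 10.96 and 10.86, above the highest Sham reading of 10.85, and the other 5 read between 9.31 and 9.93. Tnfrsf11b had HEP readings from 9.15 to 10.91 on 8 arrays, which spanned most of the HAL and the Sham ranges. The limit of 14 cells of 9 digits for genes near 10 counts HEP arrays too. A fall with all 8 HAL arrays below 10, as in these 2 genes, was read only if some HEP cells were shorter. HEP readings on the Sham side in such falls are thus partly set by the limit. The near-10 counts of HEP arrays nearer Sham include such genes, and the share due to the limit was not tested.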

How the data were processed

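RNA of cortical microvessels was measured on 24 single-colour arrays, and RMA was run by the authors, per the submitters' processing notes, its version not given in the sources used here. The deposited log2 values hold only their decimals (unit other), without the whole-number part, decimal point or zeros at either end. The build was not given in the sources used here. The labels name a whole-transcript labelling kit, while probe identifiers are those of a 3' array, which was not resolved. Of 31099 probes, 20832 had 1 gene symbol in the platform annotation, 436 had several and 9831 none. Only the first were named, with 1 probe a gene.

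Readings near 10 needed 1 to 14 cells of 9 digits. Genes at 10 or above were compared as angles of their decimals. limma 3.58.1 (R 4.3.3) was fitted to all 24 arrays with HAL, Sham and HEP as groups, and p-values were adjusted over all genes by Benjamini-Hochberg, with 0.05 as threshold. A likelihood decoding (SD 0.08 to 0.7, flat share 0.02) was an alternative. Arrays give no read depth, and their number limits the precision. Methods were tested on simulated data.

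Named genes were the 10 largest rises and falls near 10, the 12 largest differences each way by angle among called genes, and up to 4 called genes of each list or its gene of smallest p. Others were named after their values were seen. Members and gene lists were chosen with earlier results of these data known.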

Additional observations from a re-analysis of the deposited data

Results flagged for a closer look

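In groups of 4 to 8 arrays read, 13 of 132 groups had 1 array far from the others by Dixon's criterion. Chance alone sets apart about 1 group in 20. Among genes that rose, Ptges stood at 10.34 on Sham array 5, Adamts9 at 10.46 on Sham array 2, both high for Sham, and B4galt5 at 10.12 on HAL array 2, low for HAL. Among genes that fell, Gsta4 stood at 10.39 on HAL array 1 and Rasgrp3 at 10.68 on HAL array 8, both high for HAL, and Stx3 at 9.95 on Sham array 4, low for Sham. Of genes not called near 10, Bst2 stood low at 9.31 and Egr3 high at 10.32, both on Sham array 3. Values at 10 or above here come from cells of 8 digits. They may be signals from 9 to 10 that lost a zero rather than arrays truly set apart, which was not tested.

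By angle, Slco1a4 stood at 0.034 on Sham array 3, Gja1 at 0.33 on Sham array 5, Icam2 at 0.11 on Sham array 6, Bnip3l at -0.49 on Sham array 8 and Psma7 at 0.48 on HAL array 5. Deviations near 0.5 in size, as those of Bnip3l and Psma7, lie next to the point where the scale wraps round.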

How the results depend on the processing

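Of 66 genes called near 10, decoded values gave 112 (40 of them higher), probes more likely near 10 gave 110 (41 higher), and decoding with centred arrays gave 114. Without HAL arrays 2 and 5 and Sham array 3, whose median readings are the lowest, 37 were called, and read as angles 0, a reading in which any difference over 0.5 wraps round. The first decoding allowed an SD of up to 0.35, which folded genes whose groups lay far apart, and called 92. The wider limit was set after those results were seen. The remaining alternatives gave 62 to 96 genes, the latter both with array weights and without HEP array 8, which stood apart and was left out only after the data were seen. Leaving out single arrays gave 49 to 88. Among the 7 genes compared by angle, 1 was called with the replicate number as a block, 41 with array weights, 0 with a trended prior variance, 32 decoded, 11 without HEP array 8, 13 at a resultant length of at least 0.5, 28 decoded without those 3 arrays and 36 decoded and centred, and 2 to 10 with single arrays left out. The 21 genes of the lowest class became 50 without HEP array 8, 3 with the block, 8 with 9-digit cells as angles, 36 with centred arrays, 1 without the 3 arrays and 4 to 37 with single arrays left out. Same-numbered HAL and Sham arrays correlated between -0.031 and 0.090, so numbers were not taken as pairs, and near 10 the block called 63 genes, 48 of them among the 66.

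Centring the arrays turned the sign of 15 of 196 list genes near 10 and of 30 of 305 by angle, all with differences close to 0. Read as angles, these near-10 genes changed sign: Acly -0.04, Adgra2 0.067, Aldh1a2 0.11, Atp13a5 0.050, Bst2 0.051, Cachd1 0.10, Caprin1 0.32, Col3a1 0.13, Csk 0.085, Egr3 -0.12, Ell -0.24, Eno2 -0.051, Eogt 0.16, Exoc2 0.079, Fam13c 0.052, Fam43a -0.0059, Gpr155 0.089, Hacd3 -0.054, Kat2b 0.21, Lyz2 -0.080, Mpdz 0.089, Paqr5 0.24, Pkd2 0.21, Prxl2a -0.16, Rassf8 0.30, Rbp4 -0.12, Rexo2 0.099, Rgs17 0.10, Rnpep 0.37, Serpinb9 0.074, Sh2b3 0.29, Slain2 0.047, Slc1a1 -0.057, Slc39a8 0.16, Syne1 0.083, Tbl1xr1 0.34, Tmem88 -0.063, Tnfrsf11b 0.015, Tpd52l1 0.13, Tpm1 0.16, Tsen15 -0.18, Tspan12 0.20 and Ugt8 0.21. With the first decoding Gpr155 was 0.089, Stx3 0.24 and Ttr -0.098. With decoding and the 3 arrays left out Serpinb9 was 0.023, Itprid2 -0.12 and Psma7 -0.25. Decoding gave Itprid2 -0.20, Psma7 -0.15 and Tagln -0.14, and with centred arrays -0.16, -0.11 and -0.10. With leading zeros restored to short cells Bpgm was 0.077, Icam2 -0.040, Itprid2 -0.18, Psma7 -0.21 and Tagln -0.013. Leaving out single arrays, Gzmb ranged from -0.21 to 0.041, Lyz2 from -0.017 to 0.32 and Ttr from -0.088 to 0.14. The cause of these changes was not tested.

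The whole-number parts are lost. Directions hold only for genes that truly lie between 9 and 11, and cells of 8 digits may be signals from 9 to 10 that lost a zero. Missing short cells leave as few as 5 of 8 arrays in a HAL or Sham group of a called gene, except 4 for Itprid2. Over 14 cells of 9 digits were held by 17467 of the probes with a gene name, of which 9964 were more likely below 10 and 7503 near it.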

Other observations

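Genes with at least 15 cells of 9 digits among the 24 arrays, 12531 in number, were compared after the table had been seen, with the likelihood model's values. In limma with Benjamini-Hochberg adjustment 21 were called (0.168%), and 1559 had an unadjusted p under 0.05. The digits of 15 of the 21 were more likely those of signals near 10 and of 6 those of signals below it. For the 6, values are known only up to whole units, so the -0.43 of Med23 may be 0.57. For the 15, the model chose the whole number of each cell, which the digits alone do not settle. No direction can be relied on for any of the 21. Without HEP array 8, 50 genes were called. Nfkb1, the p105 and p50 subunit of NF-kB, had a difference of -0.68. Others were Col5a2, a fibrillar collagen (-0.53), Tmpo, a protein of the nuclear envelope (-0.63), Maged2 (-0.63), Idh1, the cytosolic isocitrate dehydrogenase (-0.35), Mitf, a transcription factor (-0.39), Impa1, an inositol phosphatase (-0.46), Pdgfd, a platelet-derived growth factor (0.54), Ctsz, a lysosomal protease (0.49), and Rgs1, a regulator of G protein signals (0.32). The other 11 lay between -0.43 and 0.43.

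With decoded values near 10, 57 genes were called that the readings did not call, 24 of them higher in HAL and 33 lower. Their differences in the readings included those of Trim16 (0.76), Spsb1 (0.74), Odc1, the first enzyme of polyamine synthesis (0.69), Plscr1 (0.65), S1pr3, a receptor of sphingosine 1-phosphate (-0.51), and Idh2, the mitochondrial isocitrate dehydrogenase (-0.46). Genes of the lists above among them were Col1a2, Sox18, Myl12b, Gucy1b1, Higd1a, Hk1, Per1, Tnfrsf1a and Rbp4.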
